A study of Mus musculus with 3 samples.

Results

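The 7 genes described here encode the core proteins of central myelin: Mbp, Mog, Mag, Cnp, Mobp, Mal and Cldn11. They were taken by name from the 16178 genes of the deposited tables, and all 7 were present. Their levels were read in the cells that the authors kept, by the authors' cluster number, by plate and by autofluorescence, and in 86 further wells that only the unfiltered table holds.

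Male C57BL/6J mice gave the cells, which were taken from the subventricular zone, the stem cell niche along the lateral ventricles, with no other allele or agent given, and the sources used here do not give the age. Per the labels' protocols, each of 3 experiments took 8 mice, used trypsin to dissociate the tissue and enriched magnetically for cells carrying GLAST, the glutamate transporter Slc1a3. Beads that take out myelin were used in 2 of the 3 experiments, which are not named. Each of the 3 samples is 1 plate of SORT-seq, in which a sorted cell lands in a well and each transcript is tagged at its 3′ end with a well barcode and a molecular identifier, and autofluorescence, light a cell emits without a label, was recorded for each kept cell.

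In the GRCm38 annotation (GENCODE M21) the genes lie on 7 chromosomes: Mal at 2:127633226-127656695, Cldn11 at 3:31149920-31164324, Mag at 7:30899176-30914873, Mobp at 9:120149707-120181484, Cnp at 11:100574904-100591729, Mog at 17:37010743-37023398 and Mbp at 18:82475146-82585637. Each value counts transcripts over a whole gene, so the isoforms of a gene are summed. Cnp overlaps Dnajc7 on the other strand, which is also in the tables, and the sources used here do not say whether counting used strand, so reads of that pair may be mixed.

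Myelin is the wrapped membrane that oligodendrocytes lay around axons. Mbp, myelin basic protein, holds the inner faces of the membrane together, and its mRNA is known to be carried out along the cell's processes and translated at the sheath. Mobp is a second small basic protein of compact myelin. Mog and Mag are immunoglobulin-like surface proteins of the outermost and innermost layers, Cnp is a phosphodiesterase of the cytoplasm-filled channels, Mal is a membrane proteolipid that takes part in sorting myelin proteins, and Cldn11 is the claudin that seals the layers. Mature oligodendrocytes switch these genes on together, under SOX10 and MYRF among other factors, while microglia, astrocytes and stem cells lack most of their products.

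Because mature oligodendrocytes are known to use SOX10 and MYRF at these genes, the 250 bases before their RefSeq starts (GRCm38.p6) were searched for letters of the SOX family, ACAAAG or ACAATG, and of MYRF, CTGGCAC or CTGGTAC, on both strands. The 2 sets of letters do not overlap each other. Of the 8 windows of 6 genes, SOX letters stood in 4, of Cnp, Mag and Mobp, and MYRF letters in 4, of Cnp, Mag and Mog. A pair of Mag windows overlap and hold the same SOX match and the same MYRF match, so each of these is counted 2 times; by gene, each set of letters stood in 3 of 6. Of all 32851 such windows in the table, 25.2% held SOX letters and 5.93% MYRF letters. Windows of Mal and Cldn11 held neither. The sequences of Cnp (11:100574689-100574938, plus strand), Mobp (9:120149492-120149741, plus strand) and Mog (17:37023399-37023648, minus strand) are shown because they hold a match of each kind, 6 SOX matches, and a single MYRF match; capitals mark the matches.
Cnp: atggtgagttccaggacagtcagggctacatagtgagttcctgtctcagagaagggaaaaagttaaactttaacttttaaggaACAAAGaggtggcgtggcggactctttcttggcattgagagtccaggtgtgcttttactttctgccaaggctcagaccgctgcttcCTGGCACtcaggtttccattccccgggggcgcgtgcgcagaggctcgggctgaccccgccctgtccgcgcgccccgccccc
Mobp: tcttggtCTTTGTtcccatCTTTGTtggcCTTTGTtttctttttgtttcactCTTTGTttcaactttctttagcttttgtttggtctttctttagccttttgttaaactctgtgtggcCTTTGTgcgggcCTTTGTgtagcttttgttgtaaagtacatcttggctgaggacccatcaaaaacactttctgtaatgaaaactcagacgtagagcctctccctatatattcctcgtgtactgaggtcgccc
Mog: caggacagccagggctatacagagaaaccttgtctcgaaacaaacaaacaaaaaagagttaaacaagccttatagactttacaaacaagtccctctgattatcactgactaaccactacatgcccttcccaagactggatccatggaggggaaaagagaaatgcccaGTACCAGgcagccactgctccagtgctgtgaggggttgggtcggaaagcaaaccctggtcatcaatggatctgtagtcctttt
A match of letters is a description of the sequence and not a site shown to be bound.

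The plates held 43, 45 and 61 kept cells with medians of 4370, 7720 and 7205 estimated transcripts, and 20, 34 and 32 wells that were left out, with medians of 131, 286 and 313. Plates use the same well layout, and 54 well names recur on all 3. Clusters 0 and 2 held 4, 25 and 48 cells on plates 1 to 3 and clusters 1, 3 and 4 held 39, 20 and 13. By markers other than the 7 genes, clusters 0 and 2 were oligodendrocyte-like: 8 of 8 such genes were detected on each plate, at 58665, 65015 and 57325 in sum (CPM, a set's estimated transcripts scaled so that every set has the same total), against 456, 2910 and 2623 in clusters 1, 3 and 4 together. Markers of oligodendrocyte precursors summed to 44.4, 138 and 106 CPM there. Cluster 1 was microglia-like, cluster 3 like astrocytes or quiescent stem cells, and cluster 4 like activated stem cells. The labels call all cells neural stem cells, which clusters 0, 1 and 2 go against by these markers. The authors drew the clusters from the same values, so levels by cluster are given without a test.

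In clusters 0 and 2 the 7 genes together made up 45319, 45967 and 44461 CPM on plates 1 to 3, or 45249 ± 755 (SD, n = 3). The sum was nearly the same on the 3 plates although the plates held 4 to 48 such cells. Plate 1's value rests on those 4 cells. Transcripts are counted once per molecule at the 3′ end, so levels were compared between genes without dividing by length.

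Cldn11 stood at 11630, 11492 and 9677 CPM on plates 1 to 3 in clusters 0 and 2, and Mal at 12677, 10044 and 10012. These 2 membrane proteins had the highest levels of the 7, and their means of 10933 ± 1090 and 10911 ± 1529 CPM (SD, n = 3) differed by less than the spread between plates. Cnp stood at 7289, 7885 and 8545 CPM, and Mbp at 6835, 7735 and 7874. Their means of 7906 ± 628 and 7481 ± 564 (SD, n = 3) also lay within each other's spread. The 3 genes with the lowest levels were Mag, at 3001, 3798 and 3354 CPM, Mog, at 2662, 2302 and 2289, and Mobp, at 1225, 2712 and 2710. Mag was above Mog on each plate, whereas Mog and Mobp changed order between plate 1 and the others.

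**Figure D1:**
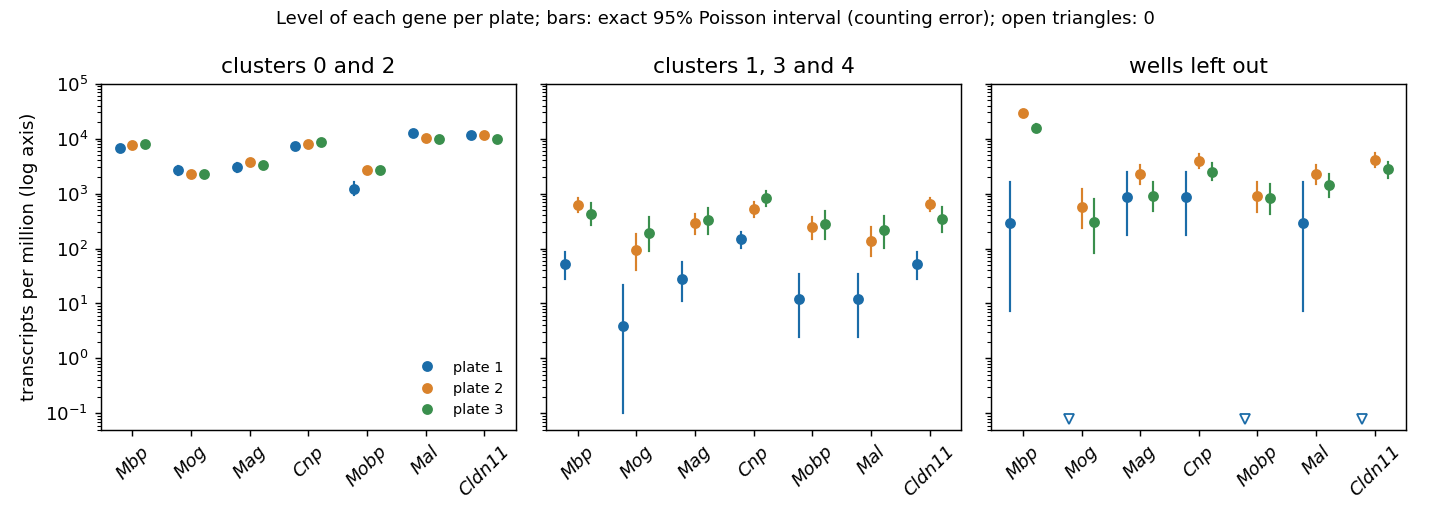
Level of each of the 7 genes per plate on a log axis of CPM, in clusters 0 and 2, in clusters 1, 3 and 4, and in wells left out. Points are plates, bars the exact 95% Poisson interval, which covers counting error only, and open triangles a level of 0. Mbp is the gene whose wells left out on plates 2 and 3 lie above clusters 0 and 2.

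All 42 cells of cluster 0 had transcripts of each of the 7 genes. Their summed level ran from 29625 to 54969 CPM with a median of 39505, in cells with totals of 3650 to 21120 transcripts. The cells of cluster 2 ran from 0 to 67182 CPM with a median of 42772. In 34 of its 35 cells each of the 7 genes was present. The remaining cell, on plate 1, had 0 transcripts of all 7 among 1993, which allows a summed level of up to 1506 CPM by a limit of 3 counts. It held 2 transcripts of the other oligodendrocyte markers, 17 of activated stem cell markers (5 of 8 genes) and 26 of astrocyte or quiescent stem cell markers, and 7.14% of its transcripts were in the authors' mitochondrial percent. Its cluster number thus went against its myelin genes.

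The next lowest cells of clusters 0 and 2 had 9975 and 21722 CPM. The highest cells outside these clusters, all of cluster 1, had 8326, 7463 and 5267 CPM. Apart from the cell without transcripts, the summed level of the 7 genes therefore did not overlap between the 2 groups of clusters, and 1650 CPM separated the nearest cells.

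**Figure D2:**
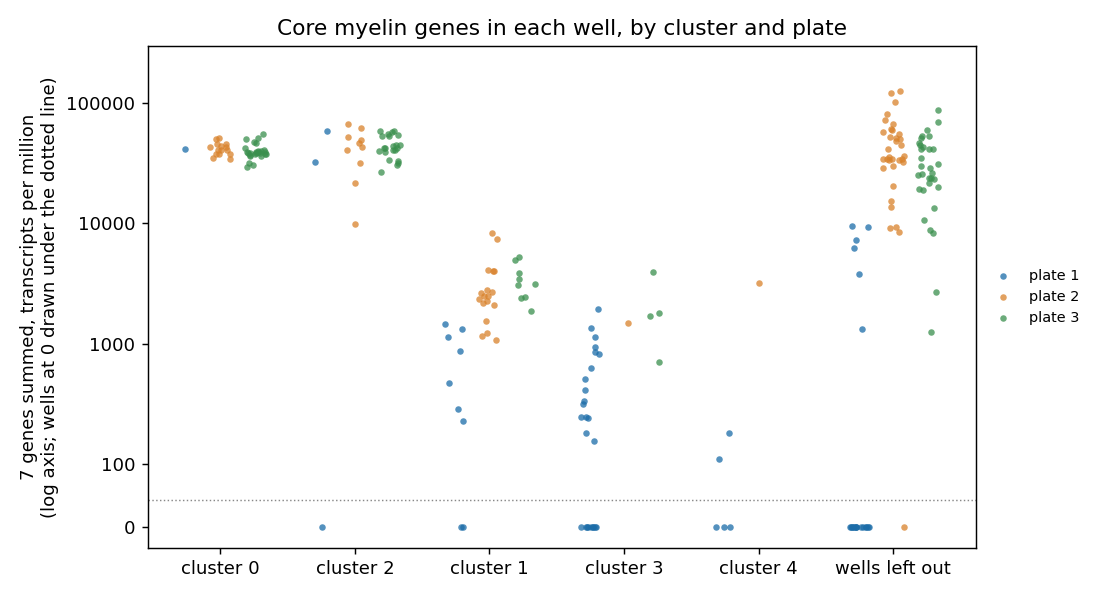
Summed level of the 7 genes in each well, in CPM on a log axis, by cluster and, in colour, by plate. Wells with 0 transcripts are drawn under the dotted line. Cells of clusters 0 and 2 have a median of 40553 with 1 cell at 0, cells of clusters 1, 3 and 4 have a median of 1139, and wells left out on plates 2 and 3 reach the level of clusters 0 and 2.

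The 7 genes were not present in the same proportions in clusters 0 and 2. Mal took 19.8%, 19.1% and 18.1% of the 7 genes' transcripts in cluster 0 on plates 1 to 3, and 34.0%, 25.0% and 27.1% in cluster 2. Mbp took 19.1%, 19.5% and 20.6% in cluster 0 and 12.1%, 13.8% and 14.7% in cluster 2. On each plate Mal had the larger share and Mbp the smaller in cluster 2, and the ranges of plates did not overlap. On plate 1 cluster 0 is 1 cell and cluster 2 is 3. Without its cell with the most transcripts of the 7 genes on that plate, cluster 2 had 25.8% of Mbp and 18.1% of Mal, so its direction there rests on that cell. In level, Mal averaged 14071 ± 2015 CPM in cluster 2 and 7964 ± 372 in cluster 0, and Mbp 6651 ± 694 and 8260 ± 301 (SD, n = 3).

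Over the 77 cells of clusters 0 and 2, the levels of the 7 genes went together only in part. Spearman's rho of a pair of genes, on deviations from the plate median, had a median of 0.184 over 21 pairs and ran from -0.07 to 0.71. The highest, 0.71, was that of Mal and Cldn11. With a cell's total, each of the 7 had a positive rho, with a median of 0.430, and once each cell was thinned to 1206 identifiers the median fell to 0.173 with the total and 0.061 between genes, while Mal and Cldn11 kept 0.447. These cells share 3 libraries and their depth, so the values describe them and carry no p. Clusters 0 and 2 were pooled here, and both Mal and Cldn11 had higher mean levels in cluster 2. Mal had 14071 CPM there against 7964 in cluster 0, and Cldn11 12380 against 9540. The part of cluster in their rho was not tested.

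Among 514 genes ranked by how closely their level followed the mean of the 7 over these 77 cells, Tubb4a, a tubulin, had a Pearson's r of 0.740, Aplp1, an amyloid precursor-like protein, 0.703, Cmtm5 0.678 and Ermn, an oligodendrocyte cytoskeletal protein, 0.675. Rtn4, which encodes Nogo, had 0.668, Slc48a1, a heme transporter, 0.648, Sept4, a septin of myelin, 0.646, Rnf13 0.640 and Stmn1, a microtubule regulator, 0.640. Ermn and Sept4 were on the list of other myelin genes. Without the cell that lacks the 7 genes, Tubb4a had 0.554 and Aplp1 0.105, and 3 of the 10 most alike were still among the 10.

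Outside clusters 0 and 2 the 7 genes were low, and 58 of 72 cells held at least 1 transcript of any of them. By gene, the share of these cells with a transcript ran from 19.4% for Mog to 58.3% for Cnp, and each gene but Cnp had a median of 0. In clusters 1, 3 and 4 together they summed to 305, 2546 and 2622 CPM on plates 1 to 3, which is 0.673%, 5.54% and 5.90% of the level in clusters 0 and 2 of the same plate. Clusters 0 and 2 gave 15.1%, 79.1% and 90.4% of the kept transcripts of these plates. Plate 1 was thus low in both. With 1 sample per plate, neither plate, day nor the removal of myelin can be told apart here.

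Cluster 1, the microglia-like cells, should lack these genes, and it gives the level at which they appear in cells of another type. The 7 genes summed there to 573, 2526 and 3565 CPM, a mean of 1.89, 10.3 and 9.45 transcripts a cell, and 34 of 36 cells had at least 1. Cluster 3, the astrocyte-like or stem-cell-like cells, had 421, 1476 and 1614 CPM, and 21 of 30 cells had at least 1. In CPM it lay below cluster 1 on each plate, at a median depth of 4192 transcripts a cell against 3455, although plate 2 holds 1 such cell and plate 3 holds 4. In transcripts a cell the order differed: cluster 3 had 2.20, 6.001 and 9.003, above cluster 1 on plate 1 and below it on plates 2 and 3. Cluster 3 is thus not shown to hold more of the 7 genes than cluster 1. The 5 cells of cluster 4 on plate 1 had 54.3 CPM, and its single cell on plate 2 had 3212, of which 1837 were Mbp.

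The other direction was measured with the 10 microglia markers. They summed to 578, 238 and 211 CPM in clusters 0 and 2, against 40536, 43351 and 41772 in cluster 1. On plates 2 and 3 the myelin genes in cluster 1 thus stood at a higher CPM than the microglia genes in clusters 0 and 2. Median depth over all plates was 3455 transcripts a cell in cluster 1 and 9012 in clusters 0 and 2. These 2 clusters gave 79.1% and 90.4% of the kept transcripts on plates 2 and 3. The part of depth and of this make-up was not tested.

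The proportions of the 7 genes in cluster 1 differed from those in clusters 0 and 2, most for Mal. Mal took 5.88%, 5.38% and 7.06% of the 7 genes' transcripts in cluster 1 (exact 95% binomial intervals 0.149 to 28.7%, 2.61 to 9.66% and 2.63 to 14.7%), against 28.0%, 21.9% and 22.5% in clusters 0 and 2. On plates 2 and 3 the intervals did not reach the value of clusters 0 and 2, which on plate 1, with 17 identifiers in cluster 1, lay inside. Mbp took 5.88%, 20.4% and 15.3% in cluster 1 against 15.1%, 16.8% and 17.7%, values within the intervals of each plate. As a percent of the level in clusters 0 and 2, Mal had 0.266%, 1.35% and 2.51% in cluster 1, whereas Mobp had 2.75%, 10.5% and 13.9% and Mag 1.12%, 8.58% and 15.0%.

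Cnp took a larger share of the 7 genes' transcripts in clusters 3 and 1 than in clusters 0 and 2. Its share in cluster 3 was 52.7% on plate 1 (29 of 55 identifiers, exact interval 38.8 to 66.3%), 33.3% on plate 2 (2 of 6) and 41.7% on plate 3 (15 of 36, 25.5 to 59.2%). In clusters 0 and 2 it was 16.1%, 17.2% and 19.2%, below the intervals of plates 1 and 3. In cluster 1 it was 41.2% (7 of 17 identifiers, exact interval 18.4 to 67.1%), 21.5% (15.8 to 28.1%) and 27.1% (17.99 to 37.8%), above clusters 0 and 2 on each plate, but on plates 2 and 3 with an interval that held their value. In level, Cnp had 222, 492 and 673 CPM in cluster 3 and 236, 543 and 965 in cluster 1, so no excess over cluster 1 was seen. Whether reads of the overlapping Dnajc7 take part was not tested.

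**Figure D3:**
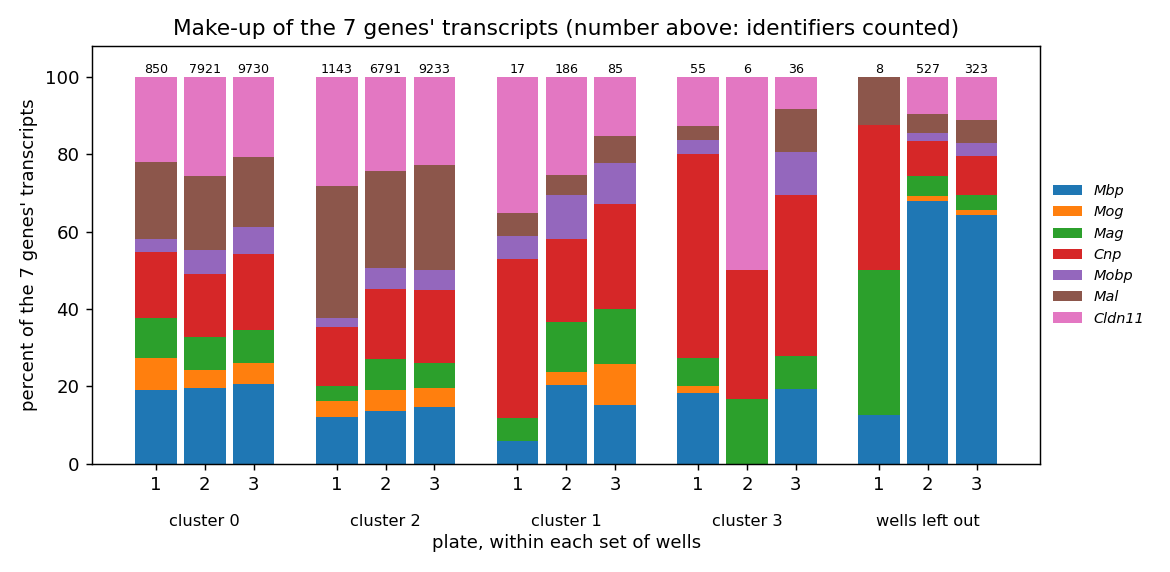
Percent of the 7 genes' transcripts that each gene takes, by plate, in clusters 0, 2, 1 and 3 and in wells left out, with the number of identifiers counted above each bar. Bars stack to 100. In wells left out, Mbp takes 68.0% on plate 2 and 64.4% on plate 3, and plate 1 rests on 8 identifiers.

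The wells that the authors left out had few transcripts, 57.0 to 1612 each, and at most 421 genes. On plates 2 and 3, Mbp stood far above its level in any cluster there. It had 286 CPM on plate 1, which is 1 transcript, 29697 on plate 2 and 15872 on plate 3, against 6835, 7735 and 7874 in clusters 0 and 2. That is 4.18%, 384% and 202% of the level of those clusters.

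The other 6 genes did not share this. In wells left out on plates 2 and 3, Mag had 2236 and 915 CPM, 58.9% and 27.3% of its level in clusters 0 and 2. Cnp had 49.4% and 29.4%, Cldn11 36.0% and 28.4%, Mobp 33.6% and 30.9%, Mog 25.2% and 13.3%, and Mal 22.3% and 14.5%. Each of these 12 values lay below 100%, while both of Mbp lay above. On plate 1 the wells left out held 8 transcripts of the 7 genes in all: 3 of Mag, 3 of Cnp, 1 of Mal and 1 of Mbp, and 0 of Mog, Mobp and Cldn11, which allows up to 857 CPM for each.

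**Figure D4:**
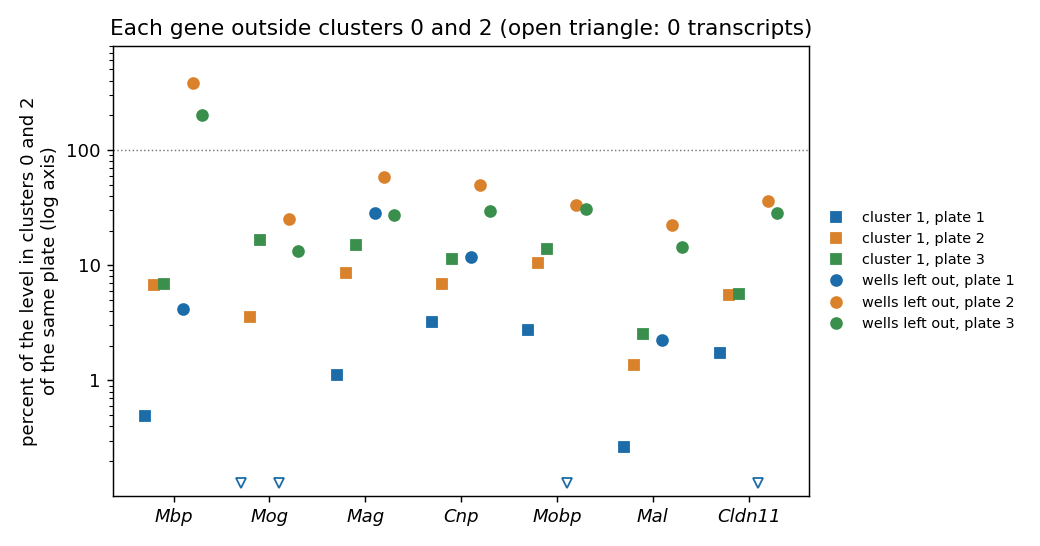
Level of each gene in cluster 1 (squares) and in wells left out (circles) as percent of its level in clusters 0 and 2 of the same plate, on a log axis, with the dotted line at 100 and open triangles for 0. Mbp in wells left out, at 384% and 202% on plates 2 and 3, is the gene above the line, and Mal in cluster 1, at 0.266 to 2.51%, is the lowest on each plate apart from Mog, which is at 0 on plate 1.

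The number of Mbp transcripts per transcript of the other 6 genes was 0.143, 2.12 and 1.81 in wells left out on plates 1 to 3, against 0.178, 0.202 and 0.215 in clusters 0 and 2. The log2 difference was -0.31, 3.39 and 3.07, higher on 2 of 3 plates, with a mean of 2.05 ± 2.05 (SD, n = 3, exact two-sided sign-flip permutation p = 0.5). Plate 1, with 8 transcripts, set both the spread and the p, and 3 plates cannot give a p below 0.25. Against Mog alone, Mbp had 51.2 and 52.1 transcripts for each on plates 2 and 3, where clusters 0 and 2 had 3.36 and 3.44. Against Mal the counts were 13.3 and 10.96 to 1, where clusters 0 and 2 had 0.770 and 0.786. Plate by plate the log2 difference against Mal was 0.89, 4.11 and 3.80, higher on 3 of 3 plates, where plate 1 is 1 transcript of each gene (exact two-sided sign-flip permutation p = 0.25, the smallest that 3 plates allow); this is 1 of 7 such tests of ratios to Mbp, whose lowest Benjamini-Hochberg adjusted p is 0.583, and each of the others had p of 0.5 or above. On plate 1 the difference went the other way against Mag, at -2.77, and Cnp, at -1.49, from 1 transcript of Mbp and 3 of each partner, and the other 3 genes had no transcript to give a ratio. Those 3 genes, Mog, Mobp and Cldn11, were tested on 2 plates only, where 0.5 is the smallest sign-flip p possible. Each gave that p with a positive difference on both plates, so their tests could not decide and yet count among the 7.

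The excess of Mbp was spread over wells. On plate 2, 33 of 34 wells left out had a transcript of the 7 genes, Mbp led in 24 and took more than all others together in 23. On plate 3 the figures were 32 of 32, 27 and 20. In the 77 cells of clusters 0 and 2, Mbp took more than all others together in 0, and in clusters 1, 3 and 4 in 4 of 39, 3 of 20 and 0 of 13 cells on plates 1 to 3. A well left out had at most 31 identifiers of Mbp, with medians of 9 and 6 on plates 2 and 3 and 0 on plate 1. Clusters 0 and 2 had medians of 83 and 59.5 a cell on plates 2 and 3. In numbers of transcripts a well, the 7 genes averaged 0.400, 15.5 and 10.1 in wells left out and 1.89, 10.3 and 9.45 in cells of cluster 1, so the number in a well was of the same order on plates 2 and 3. Mbp averaged 10.6 and 6.51 transcripts in a well left out on these plates, against 38 identifiers in 18 cells and 13 in 9 cells of cluster 1.

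Other transcripts of these wells are given for comparison. Markers of microglia summed to 9424, 3808 and 991 CPM in wells left out, with 7, 10 and 5 of 10 genes detected, and those of astrocytes or quiescent stem cells to 17421, 5960 and 10446, with 8, 8 and 9 of 10. Neuron markers (6 genes) and the 3 of 4 ependymal markers in the tables were at 0 on each plate. Only 1 of 4 red blood cell markers was in the tables, at 0 in every set, so it gives no measure of such RNA. The other 8 oligodendrocyte markers summed to 1714, 21959 and 11899 CPM. The mitochondrial ribosomal RNA gene mt-Rnr2 stood at 17435, 75884 and 121587 CPM in wells left out and at 15145, 20885 and 19129 in clusters 0 and 2, and mt-Rnr1 at 3712, 32204 and 29083 against 5154, 4889 and 5339. Their part in the levels of the 7 genes was not tested.

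Of the other 31 myelin genes present, 24 had at least 500 CPM in clusters 0 and 2 on plate 2, and likewise 24 on plate 3. In wells left out they stood at a median of 41.2% of that level on plate 2 (17.5 to 218%) and 24.4% on plate 3 (0 to 77.0%). The gene above 100% among these 24 was Plekhb1, at 218% on plate 2 and 77.0% on plate 3. Bcas1, below the limit of 500 CPM, had 253% on plate 2 (580 against 229 CPM) and 26.4% on plate 3. The 6 genes other than Mbp lay in the range of the 24 genes and Mbp lay above that range on both plates.

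A fit over all genes compared wells left out with kept cells of the same plate. Of 3788 genes tested by edgeR's quasi-likelihood test with plate as a block, 6 passed an adjusted p of 0.05, or 0.158% (5 higher, 0.132%, and 1 lower, 0.0264%), and 487 had an unadjusted p under 0.05. None of the 7 genes was among the 6. The kept cells are a mixture, to which clusters 0 and 2 gave 15.1% of transcripts on plate 1, and the median log2 change of all genes was -1.15 (-0.82 with RLE scaling), so a change is read against that. Mbp, at 286, 29697 and 15872 CPM in wells left out and 1078, 6249 and 7156 in kept cells, had a fitted log2 difference of 0.45 with SE 0.84 (adjusted p = 0.799 by edgeR), higher on 2 of 3 plates and 1.61 above the median of all genes. Mal, at 286, 2235 and 1449 against 1928, 7974 and 9067 CPM, had -2.85 (SE 0.76, edgeR adjusted p = 0.0927), lower on 3 of 3 plates. Mog had -2.72, Cldn11 -2.30, Mobp -1.89, Cnp -1.61 and Mag -1.22, with edgeR adjusted p of 0.141 to 0.397. Mog, Mal and Cldn11 lay over 1 below the median of all genes, while Mag lay 0.06 below it.

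Plate 1 decided these calls. Without it, 113 of 3714 genes passed (3.04%; 32 higher, or 0.862%, and 81 lower, or 2.18%), with all 7 genes among them: Mbp was higher by 1.52 (edgeR adjusted p = 0.0146) and the other 6 were lower, from -1.22 for Mag (0.0380) to -2.41 for Mal (2.1e-06). The median of all genes in this fit was -0.92, so Mag and Cnp, at -1.22 and -1.34, lay close to it. Of the 32 genes on the list of other myelin genes, 15 passed without plate 1, all 15 of them lower, and 0 of 30 tested passed with it. The 2 plates left give 1 residual degree of freedom.

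Autofluorescence was available for kept cells. In clusters 0 and 2 of each plate, cells above the median were called high and the others low, which gave 2 and 2, 12 and 13, and 24 and 24 cells. The 7 genes summed to 49508, 48055 and 47420 CPM in high cells and to 23593, 42795 and 39316 in low cells. In these plate sums, high cells lay above low cells on 3 of 3 plates. Single cells of the 2 classes overlapped widely: on plate 2 low cells reached up to 51886 CPM and high cells down to 34048. On plate 1 the low cells include the cell without transcripts of the 7 genes, and the other low cell had 32490 CPM. High cells were 1.12 and 1.21 times as high on plates 2 and 3. High cells also held more RNA: their transcripts totalled 37737, 197365 and 274502 on plates 1 to 3, against 7277, 129910 and 157849 in low cells, and the levels of the 7 genes had a positive rho with a cell's total. Cluster 2 gave 45.2%, 42.2% and 42.1% of the transcripts of high cells and 100%, 40.8% and 51.2% of those of low cells. The part of depth and of cluster in the difference was not tested.

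By gene the differences were small and none passed. Mal had 14297, 11152 and 11137 CPM in high cells and 4276, 8362 and 8056 in low cells, 1.02 on the log2 scale with SE 0.45 (adjusted p = 0.999 by edgeR, 0.0220 before adjustment), higher on 3 of 3 plates. Cldn11 had 0.81, Mag 0.59 and Mbp 0.32, each higher on 2 of 3 plates. Mog had 0.53, Cnp 0.51 and Mobp 0.41, each higher on 3 of 3 plates. All of these had an edgeR adjusted p of 0.999. Of 3057 genes tested, 0 passed (0%), 56 had an unadjusted p under 0.05, and DESeq2 also called 0. All 7 genes had a positive change, with a median of 0.53 beside 0.06 for all genes tested, and of 30 other myelin genes tested 25 were above 0, with a median of 0.30. The size rested on plate 1, with 2 cells in each class: without it the 7 changes ran from 0.06 for Mbp to 0.44 for Mal, with Cldn11 at 0.13 and Mog at 0.14. With the split made within plate and cluster they ran from 0.05 for Mbp to 0.41 for Mal. In 10 of 10 alternatives each of the 7 was above 0, with no adjusted p under 0.722. Over the 77 cells, rho with autofluorescence ran from 0.072 to 0.304, and from 0.064 to 0.215 in thinned cells.

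**Figure D5:**
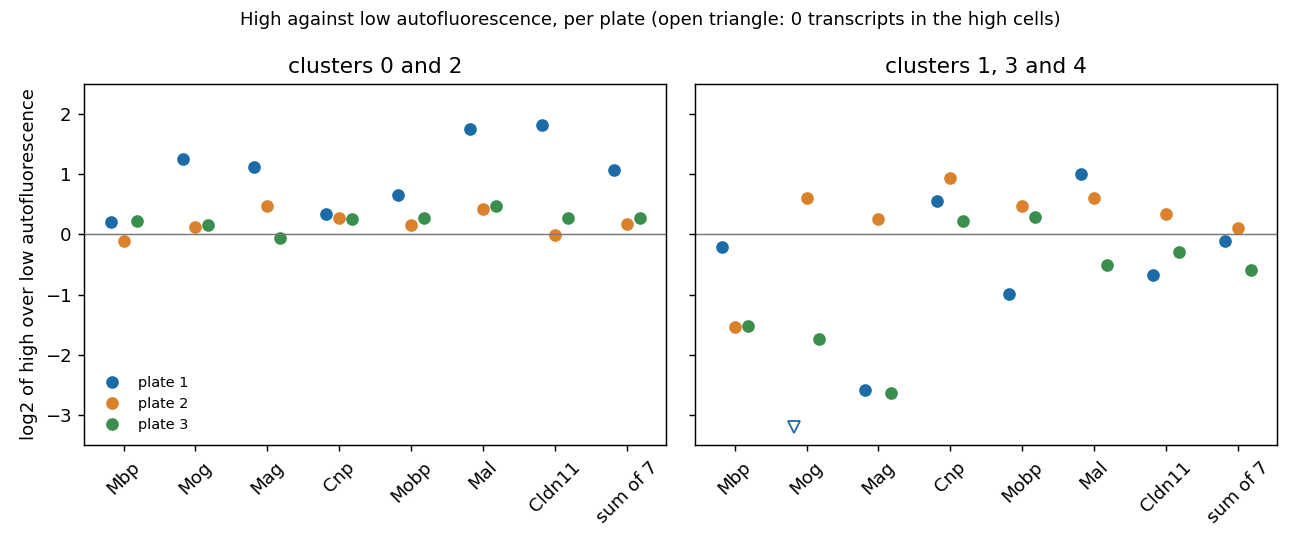
Log2 ratio of the level in cells of high over low autofluorescence for each of the 7 genes and their sum, per plate, in clusters 0 and 2 and in clusters 1, 3 and 4. Open triangle: 0 transcripts in the high cells. In clusters 0 and 2 the sum is above 0 on 3 of 3 plates, and in the other clusters Mbp is below 0 on 3 of 3.

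In clusters 1, 3 and 4, high and low cells were split within plate and cluster. The 7 genes summed to 294, 2658 and 2088 CPM in high cells and 316, 2472 and 3132 in low cells, with no common direction. Mbp had 47.6, 292 and 222 CPM in high cells against 55.4, 844 and 635 in low cells, lower on 3 of 3 plates, with -1.08 on the log2 scale with SE 0.59 (adjusted p = 0.998 by edgeR). On plate 2 this rests on 10.0 against 44.0 transcripts, and 16.0 of the latter came from the single cell of cluster 4 and 11.01 from 1 cell of cluster 1. A single cell of a cluster on a plate cannot lie above its own median. That cell of cluster 4 was therefore low by the rule of the split, whatever its autofluorescence. Split within plate alone, Mbp had -0.15 (SE 0.82, edgeR adjusted p = 0.972). Cnp was higher on 3 of 3 plates, with 175, 730 and 889 CPM against 119, 383 and 762 and 0.67 on the log2 scale with SE 0.47 (adjusted p = 0.998 by edgeR). Mag had -1.07, Mobp 0.26 and Cldn11 -0.02, and Mog and Mal had too few counts to be tested. Of 937 genes tested, 0 passed (0%) and 29 had an unadjusted p under 0.05; DESeq2 called 0. Whether the 2 comparisons of autofluorescence differ for Mbp was not tested.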

How the data were processed

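Cells were sorted into 3 plates and sequenced by SORT-seq. The authors deposited expected counts: estimated transcripts per gene and well, made from molecular identifiers with a correction for collisions. Inverting it with 4096 identifiers gave whole numbers for 100% of 363716 values above 0, within 1e-06. Builds mm10 and hg19 and the tools Seurat 4.1.1, BWA 0.7.15 and R 4.2.0 are listed, without roles, in the submitters' processing notes. The sources used here give neither the annotation nor the rule that left out 86 of 235 wells. Autofluorescence, an intensity in arbitrary units, the mitochondrial percent and the cluster numbers are the authors', per the file headers. The plate was read from the last digit of the library name.

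Transcripts were summed per plate and class and rounded to whole numbers; sums, not cells, are replicates, and p-values measure only the spread between these 3 plates. The test was edgeR 4.0.16 in R 4.3.3 (quasi-likelihood F test, TMM, filterByExpr, a block for plate because both classes come from each plate, Benjamini-Hochberg at 0.05), checked on simulated data, with DESeq2 1.42.0 and the alternatives of the closing section. A sum needed at least 2 cells. No doublet caller was run. Intervals (exact Poisson or Clopper-Pearson, 95%) and limits of 3 counts cover counting error only. The genes named are the 7 members, other myelin genes past the threshold or of highest level, the 10 most alike by Pearson's r among genes with at least 200 transcripts, and genes past the threshold where these are 5 or fewer. Members, lists and tests were chosen with earlier results of these data known. Sequences are RefSeq's. A gene that this rule names is not reported here.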

Additional observations from a re-analysis of the deposited data

How the results depend on the processing

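Each comparison was refitted without the plate block, with DESeq2, with RLE scaling, without a filter, on identifier counts, with other splits or thinned cells, and without each plate. In clusters 0 and 2, genes past the threshold for autofluorescence numbered 0, and 1 (Apoe) when the split was made within cluster; leaving out a plate gave 0 to 2 (Gsn and Apoe, without plate 1). Outside these clusters it was 0 throughout. Wells left out gave 6, and 0 with no replicate block, 0 without a filter, 2 with kept cells thinned (Kif5a and Tug1, among 154 tested) and 0 to 113 when a plate was left out. The plate block in the fit pairs the 2 classes of a plate, and without that replicate block no other call changed. In that comparison Mbp had -0.0722 without a filter and -0.49 without plate 2 (1.52 without plate 1), and with thinned cells Mag had 0.00433, Mbp 1.501, Cnp -0.24, Mobp -0.74, Cldn11 -1.05, Mog -1.35 and Mal -1.41, where the median of all genes was -0.24. DESeq2 called Mal lower, at -2.51 (adjusted p = 0.00300). Outside clusters 0 and 2, Cldn11 reversed to 0.0144 with no replicate block, 0.76 with the split within plate and -0.44 to 0.16 without a plate, and Mobp to -0.0470 without plate 2. The cause of these changes was not tested. The level in clusters 0 and 2 was 39140 CPM as a mean over cells, against 45249. Mbp's share there, as a mean over plates, was 18.6% without each plate's cell with the most transcripts of the 7 genes, against 16.5%. The median rho with depth was 0.173 in thinned cells, against 0.430. Dropping the cell of cluster 2 without the 7 genes was chosen after seeing the data. Depth limits plate 1 most: its wells left out hold 3502 transcripts in all. In simulated sums of wells left out and kept cells (3038 genes), the test recovered 35.0% of genes changed 8-fold and 6.10% of those changed 4-fold, so a gene without a call there is not shown to be unchanged.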

Other observations

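Of all genes tested between wells left out and kept cells, 6 passed, and they are named here after their values were seen. Kif5a, a kinesin heavy chain that moves cargo along microtubules, had 0, 2650 and 991 CPM in wells left out on plates 1 to 3 and 44.4, 52.0 and 20.8 in clusters 0 and 2. Its log2 change against kept cells was 4.70 (SE 0.84, edgeR adjusted p = 8.5e-05), the highest of the 5 genes that rose. Like Mbp it was at or near 0 on plate 1 and high on plates 2 and 3. For Kif5a the 0 on plate 1 allows up to 857 CPM by a limit of 3 counts, against 991 on plate 3. Kif5c, another kinesin heavy chain, rose by 4.31, Trak2, an adaptor between kinesin and mitochondria, by 4.12, Trp53inp2 by 3.79 and the long noncoding RNA Tug1 by 3.06, with edgeR adjusted p of 0.0048 to 0.0144. Tug1 was high on all plates, at 2856, 2152 and 1982 CPM in wells left out against 66.7, 104 and 192 in clusters 0 and 2. Tmeff2 was lower, with 0 counts behind its fitted value in wells left out, so no fold is given. Without plate 2 or without plate 3, edgeR called 0 genes, with 92 and 45 at an unadjusted p under 0.05.

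Among the 65 genes with at least 30 transcripts in wells left out, 14 stood at least as high as Mbp relative to clusters 0 and 2 on both plates 2 and 3. A pattern of above 1 on plates 2 and 3 and not on plate 1 was shared by 10 of these genes. Apart from Mbp and Kif5a, they were genes of the mitochondrial genome, mt-Rnr1 among them. On plate 1 these mitochondrial genes were far closer to the cut of 1 than Mbp. Their ratios to clusters 0 and 2 ran from 0.640 (mtCo3) to 0.989 (mtCo1), against 0.0418 for Mbp and 0 for Kif5a. Other mitochondrial genes among the 65 lay above 1 there, from 1.15 (mt-Rnr2) to 1.95 (mtNd4l).

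The 7 genes in wells left out were set beside the number of neighbouring wells that held cells of clusters 0 and 2. Spearman's rho was 0.68 over 20 wells on plate 1, where 6 wells held a transcript of the 7 genes, -0.07 over 34 on plate 2 and -0.03 over 32 on plate 3. These are descriptions of wells that share a library.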
